A study of Mus musculus with 18 samples.

Results

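The genes described here were 10 genes of the activin and bone morphogenetic protein (BMP) pathway, chosen by name: the activin chain genes Inhba, Inhbb, Inhbc and Inhbe, the secreted BMP-binding gene Bmper, the inhibitory Smad genes Smad6 and Smad7, and the inhibitor of DNA binding genes Id1, Id2 and Id3. All 10 were found among the 50600 genes of the 1 day table and the 17127 genes of the 12 hour table, and all 10 passed the filter on low counts in both. RNA was sequenced from the livers of 18 mice of the C57BL/6 strain, 3 per group, to ask how the liver responds to myocardial infarction (MI) and how the mineralocorticoid receptor (MR) of hepatocytes bears on that response. At 1 day there were 4 groups: littermate control (LC) mice with floxed MR alleles, which the labels call wild type, and hepatocyte MR knockout (HMRKO) mice with the same floxed alleles and Cre under the albumin promoter, each after MI or sham operation. At 12 hours there were 2 groups of C57 mice, after MI or sham operation. The labels give an age of 12 weeks, and the methods give male mice in which MI was made by tying off the left anterior descending artery for good. For the 1 day MI livers the operation, and for every liver the time, come from the series design, since the sample labels do not state them. Albumin-driven Cre is used to delete MR in hepatocytes, so other cells of an HMRKO liver may keep MR, and whole liver RNA holds all of them. Fewer cells of a type and less RNA per cell therefore cannot be told apart in these values.

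Activins are dimers of beta chains that bind type II and type I receptors and act through Smad2 and Smad3, whereas BMPs use a related receptor set and act through Smad1, Smad5 and Smad9. Id genes are classical BMP targets, and their products pair with E proteins and keep them off DNA. In the liver, BMP signals from endothelial cells control hepcidin in hepatocytes, and the Inhbc and Inhbe chains are made largely by hepatocytes.

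RefSeq promoter windows were available for 8 of the 10 genes, and 5 of these, in the 250 bases before the start, met no exon of the GENCODE M21 annotation. Of these, 3 are given 5′ to 3′ from RefSeq, as the upstream regions of the member with the largest change (Bmper), of the member that fell at 1 day (Inhbc) and of the member with the lower value in MI livers at 12 hours (Inhba). Capitals mark matches to the Smad box CAGAC on either strand, which reads as GTCTG where it lies on the opposite strand and which 42.19% of all 32851 RefSeq windows of this length held.
Bmper (GRCm38.p6, chr9:23222826-23223075, plus strand): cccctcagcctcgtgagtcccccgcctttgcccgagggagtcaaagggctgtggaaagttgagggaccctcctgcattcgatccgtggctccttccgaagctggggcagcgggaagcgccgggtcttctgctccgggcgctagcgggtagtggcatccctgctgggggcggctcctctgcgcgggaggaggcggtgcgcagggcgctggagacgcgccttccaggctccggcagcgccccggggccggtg
Inhbc (GRCm38.p6, chr10:127370549-127370798, minus strand): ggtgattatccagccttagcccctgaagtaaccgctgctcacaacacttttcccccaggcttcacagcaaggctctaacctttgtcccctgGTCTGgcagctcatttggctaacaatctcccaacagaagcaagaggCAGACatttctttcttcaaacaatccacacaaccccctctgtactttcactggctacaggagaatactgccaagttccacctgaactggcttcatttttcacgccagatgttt
Inhba (GRCm38.p6, chr13:16011601-16011850, plus strand): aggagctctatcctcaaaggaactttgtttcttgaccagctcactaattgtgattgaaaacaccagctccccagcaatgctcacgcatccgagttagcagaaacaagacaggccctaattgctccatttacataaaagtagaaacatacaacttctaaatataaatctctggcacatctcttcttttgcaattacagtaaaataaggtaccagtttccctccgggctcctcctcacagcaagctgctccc
Inhbc held 2 such matches, and Bmper and Inhba held none. Of the windows not shown, those of Inhbe and Id3 also held 2 each. The bases just after the RefSeq start of Inhbc, unlike those of the other genes, were not found in its GENCODE M21 transcripts. Also searched was GGCGCC, an element of BMP-responsive promoters, which was in 9.59% of windows. The site of STAT proteins, TTCNNNGAA, was in 7.02% of windows. The half-site of steroid receptors, AGAACA, was searched on both strands and was in 16.08% of windows. The cAMP response element TGACGTCA was in 1.55%. None of these further motifs had a match in the 3 windows shown, and no matches overlapped. Among the windows not shown, that of Id2 held 1 match to GGCGCC and that of Smad6 held 1 to AGAACA. The Bmper window was 71.6% G or C, that of Inhbc 48.8% and that of Inhba 43.2%. A match is a description of letters and was not tested as a binding site. Inhbe and Inhbc are neighbours on the minus strand of chromosome 10, with RefSeq starts 18.7 kb apart.

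Total counts were 19098704 to 28945526 per liver at 1 day, but at 12 hours they were 1361564 to 2255837 in sham and 16745688 to 19190438 in MI livers, so depth differed with the comparison. Nr3c2, which encodes MR, was at 4.71 to 6.70 normalised CPM (counts scaled to library size) in LC + sham, 1.90 to 3.56 in LC + MI, 2.55 to 3.76 in HMRKO + sham and 0.895 to 1.10 in HMRKO + MI livers. The library of LC + MI replicate 1 had the highest share of mitochondrial counts at 1 day, 18.9%. All 8 hepatocyte markers were detected and tested in both experiments. No label names separate cultures or batches, and p values measure the spread between these livers.

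At 1 day more of the members passed the test of MI against sham in HMRKO than in LC livers, while the difference between the genotypes in the effect of MI, tested itself, passed for 3 of the 10. A gene passed where the adjusted p of the edgeR quasi-likelihood test was under 0.05 at any fold. In HMRKO + MI versus HMRKO + sham, 8 of the 10 rose, against 22.0% of all genes tested, and 1 fell, against 21.7%. In LC + MI versus LC + sham, 1 rose (Inhbe), against 2.68% of all genes, and none fell, against 2.33%, while 2 of the 10 had an unadjusted p under 0.05 and DESeq2 also passed 1. The members' median log2 fold change was 1.29 in HMRKO and 0.38 in LC livers, where the median of all genes was 0.01 in both. The call of Inhbe in LC livers was lost without any one of the 6 LC livers, with an adjusted p of 0.0504 to 0.115 in edgeR.

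**Figure D1:**
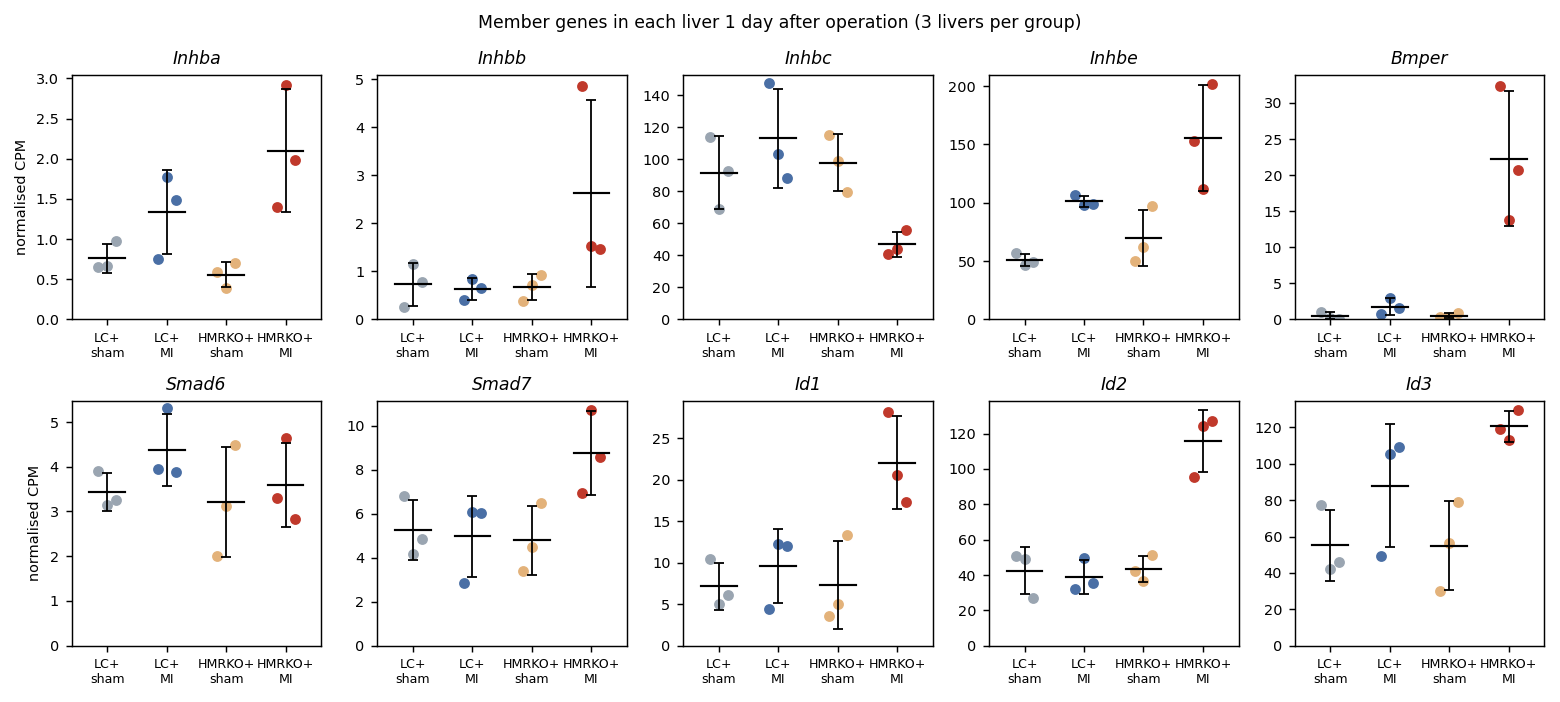
Normalised CPM of each member in each liver at 1 day. Points are livers, horizontal lines are group means and bars are 1 SD (n = 3), with each panel on its own axis from 0, where bars are cut. Bmper, Id2, Id1, Id3, Inhbe, Smad7 and Inhbb are higher in every HMRKO + MI liver than in any other liver, and Inhbc is lower. The share of all genes that separate in this way was not counted.

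Bmper, which encodes a secreted BMP-binding protein of endothelial cells and other tissues, showed the largest change of the members. It was at 1.08, 0.185 and 0.0374 CPM in LC + sham livers. In LC + MI livers it was at 0.751, 2.98 and 1.63 CPM. In HMRKO + sham livers it was at 0.293, 0.337 and 0.922 CPM, and in HMRKO + MI livers at 32.3, 13.8 and 20.7 CPM. The 3 HMRKO + MI livers stood apart from all the others, whereas LC + MI overlapped LC + sham because of 1 sham liver. Its log2 fold change in HMRKO + MI versus HMRKO + sham was 5.41 (SE 0.71), or 42.4-fold, with an adjusted p of 0.000144 in edgeR. In HMRKO + MI versus LC + MI the difference was 3.62 (SE 0.62), with an adjusted p of 0.002 in edgeR. The difference of 2.03 (SE 0.74) in LC livers did not pass (edgeR adjusted p = 0.13). LC + sham replicate 1 held 30 of the reads of Bmper in that group, the others 5 and 1, and without that liver the LC value was 3.96, with an adjusted p of 0.0288.

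The genes of the activin beta C and E chains, neighbours whose products are made in hepatocytes, moved in opposite directions in HMRKO livers. Inhbc was at 114, 68.6 and 92.4 CPM in LC + sham and at 147, 103 and 88.0 CPM in LC + MI livers. It was at 115, 99.1 and 79.6 CPM in HMRKO + sham and at 40.9, 43.7 and 55.7 CPM in HMRKO + MI livers. Every HMRKO + MI liver was below every other liver. Inhbc fell by 1.06 on the log2 scale (SE 0.23) in HMRKO + MI versus HMRKO + sham, with an adjusted p of 0.00297 in edgeR. Against LC + MI it fell by 1.27 (SE 0.23, edgeR adjusted p = 0.00267). Inhbe was at 56.8, 46.6 and 49.4 CPM in LC + sham and at 107, 98.0 and 99.0 CPM in LC + MI livers. It was at 50.4, 61.9 and 96.9 CPM in HMRKO + sham and at 153, 112 and 202 CPM in HMRKO + MI livers. MI livers were above sham livers of their own genotype without overlap. Its log2 fold change with MI was 0.99 (SE 0.24, edgeR adjusted p = 0.0346) in LC and 1.16 (SE 0.24, edgeR adjusted p = 0.00226) in HMRKO livers. The rise in HMRKO + MI over LC + MI, 0.62 (SE 0.24), did not pass (edgeR adjusted p = 0.065), but did with DESeq2 (0.0397).

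The number of Inhbe reads per Inhbc read in the same liver needs no scaling between libraries. It was 0.499, 0.679 and 0.534 in LC + sham and 0.725, 0.948 and 1.12 in LC + MI livers. It was 0.439, 0.624 and 1.22 in HMRKO + sham and 3.74, 2.55 and 3.63 in HMRKO + MI livers. At 12 hours it was 0.280, 0.515 and 0.394 in sham and 2.58, 2.48 and 1.96 in MI livers. MI livers were higher without overlap in each of these 3 settings, with mean log2 differences of 0.70 in LC, 2.23 in HMRKO and 2.59 in C57 livers. Each gave p = 0.1 in a two-sided exact permutation test, the smallest that 3 livers against 3 allow, or 0.125 adjusted over 5 comparisons. HMRKO + sham and LC + sham overlapped, with a difference of 0.29 (exact permutation p = 0.7). GENCODE M21 annotates Gm47200 on the opposite strand across both genes, and its gene held 0 or 1 count in each library at 1 day.

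**Figure D2:**
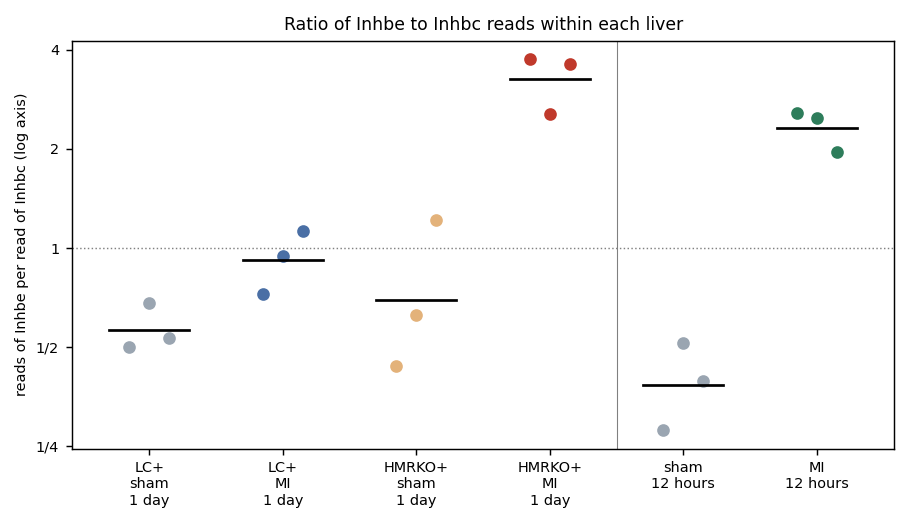
Reads of Inhbe per read of Inhbc in each liver, on a log axis, by group and time. Points are livers and lines are geometric means (n = 3), and the dotted line marks equal reads. The HMRKO + MI livers lie between 2.55 and 3.74, and the sham livers at 12 hours between 0.280 and 0.515.

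Inhba and Inhbb encode the beta A and beta B chains of the better-known activins and were low at 1 day. Inhba was at 0.646, 0.666 and 0.971 CPM in LC + sham and at 0.751, 1.77 and 1.49 CPM in LC + MI livers. It was at 0.586, 0.385 and 0.702 CPM in HMRKO + sham and at 1.40, 2.92 and 1.98 CPM in HMRKO + MI livers. Only the HMRKO pair was separate, with a log2 fold change of 1.91 (SE 0.40, edgeR adjusted p = 0.00233). The value in LC livers was 0.82 (SE 0.39, edgeR adjusted p = 0.235). Inhbb was between 0.251 and 1.15 CPM in the 9 livers of the other groups and at 4.87, 1.53 and 1.47 CPM in HMRKO + MI livers. It rose by a log2 fold change of 1.94 (SE 0.58, edgeR adjusted p = 0.0167) over HMRKO + sham and of 2.01 (SE 0.58, edgeR adjusted p = 0.0212) over LC + MI. HMRKO + MI replicate 1 set much of both values, which were 1.16 and 1.23 without it and did not pass (edgeR adjusted p = 0.111 and 0.117). The first call was also lost without HMRKO + sham replicate 1 (edgeR adjusted p = 0.0659), and the second without LC + MI replicate 1 (0.0766) or 3 (0.0532).

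The Id genes also rose in HMRKO livers after MI. Id2 was at 51.0, 49.0 and 27.2 CPM in LC + sham and at 31.9, 49.6 and 35.2 CPM in LC + MI livers. It was at 42.0, 36.5 and 51.1 CPM in HMRKO + sham and at 95.5, 124 and 127 CPM in HMRKO + MI livers. Only the HMRKO + MI livers differed, all above the other 9. The log2 fold change was 1.42 (SE 0.24, edgeR adjusted p = 0.000718) over HMRKO + sham and 1.57 (SE 0.25, edgeR adjusted p = 0.0013) over LC + MI. Id1 was at 28.2, 20.6 and 17.3 CPM in HMRKO + MI livers, against 3.60, 4.96 and 13.4 CPM in HMRKO + sham, and rose by 1.59 (SE 0.47, edgeR adjusted p = 0.016). Id3 was at 119, 113 and 130 CPM against 30.2, 56.2 and 78.8 CPM in the same groups, and rose by 1.13 (SE 0.35, edgeR adjusted p = 0.0206). Both calls were lost without HMRKO + sham replicate 1, where the values were 1.26 (edgeR adjusted p = 0.0615) and 0.84 (0.074), and without HMRKO + sham replicate 2 (0.0621 and 0.0513). The call of Id1 was also lost without HMRKO + MI replicate 1 (edgeR adjusted p = 0.0553), and that of Id3 without HMRKO + MI replicate 3 (0.0524). In LC livers Id1 and Id3 overlapped between MI and sham, and LC + MI replicate 1 had the lowest Id1 and Id3 of its group, at 4.41 and 49.0 CPM. That liver also had the lowest Id2, Smad7, Bmper, Inhba and Inhbb of its group, and the highest Inhbc and Inhbe. Of the 3 Id genes, HMRKO + MI exceeded LC + MI in the test for Id2. The values for Id1 and Id3 were 1.19 (edgeR adjusted p = 0.0662) and 0.45 (edgeR adjusted p = 0.344).

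Smad6 and Smad7 encode inhibitory Smads that block receptor signalling and are themselves induced by it. Smad7 was at 6.93, 10.7 and 8.58 CPM in HMRKO + MI and 3.39, 4.48 and 6.50 CPM in HMRKO + sham livers. The groups did not overlap, and the log2 fold change was 0.87 (SE 0.31, edgeR adjusted p = 0.038), lost without any one of 4 of these 6 livers (edgeR adjusted p = 0.0693 to 0.139). In LC livers its value was -0.07 (SE 0.31). Smad6 lay between 2.01 and 5.31 CPM over the 12 livers and passed in no comparison at 1 day, with log2 differences of -0.28 to 0.35.

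In sham-operated mice no member passed the test between genotypes. Nr3c2, the deleted gene, did not pass there either (log2 difference -0.88, SE 0.25, edgeR adjusted p = 0.471), though its groups did not overlap. The absence of a call therefore does not show that a member was unchanged. In HMRKO + sham versus LC + sham 0 of 10 passed in either direction, against 0.0210% higher and 0.0140% lower of all genes. The members' groups overlapped in every case, and the share of all genes that did so was not counted. No member had an unadjusted p under 0.05, and DESeq2 also passed 0. The differences ran from -0.44 (SE 0.42) for Inhba to 0.45 (SE 0.24) for Inhbe. In HMRKO + MI versus LC + MI, which shares its HMRKO + MI livers with HMRKO + MI versus HMRKO + sham, Bmper, Id2 and Inhbb were higher, against 14.6% of all genes, and Inhbc was lower, against 16.2%. DESeq2, and edgeR with no filter, passed 7 of 10 there, adding Id1, Smad7 and Inhbe, all higher. The difference between the genotypes in the effect of MI, tested itself as an interaction, passed for 3 of 10. Id2 had 1.55 (SE 0.34, edgeR adjusted p = 0.0146) and Bmper 3.37 (SE 1.07, edgeR adjusted p = 0.0494), among 6.74% of all genes with a higher value in HMRKO livers. Inhbc had -1.37 (SE 0.33, edgeR adjusted p = 0.0192), among 8.50% with a lower value. The call of Bmper in the interaction was lost without any one of 10 of the 12 livers (edgeR adjusted p = 0.05 to 0.484), and with DESeq2 (0.0562). The value was 1.45 without LC + sham replicate 1 and 3.01 to 4.09 without any one of the other 9. For Inhbe it was 0.17 (SE 0.34), and for the rest the adjusted p was 0.1 to 0.789.

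**Figure D3:**
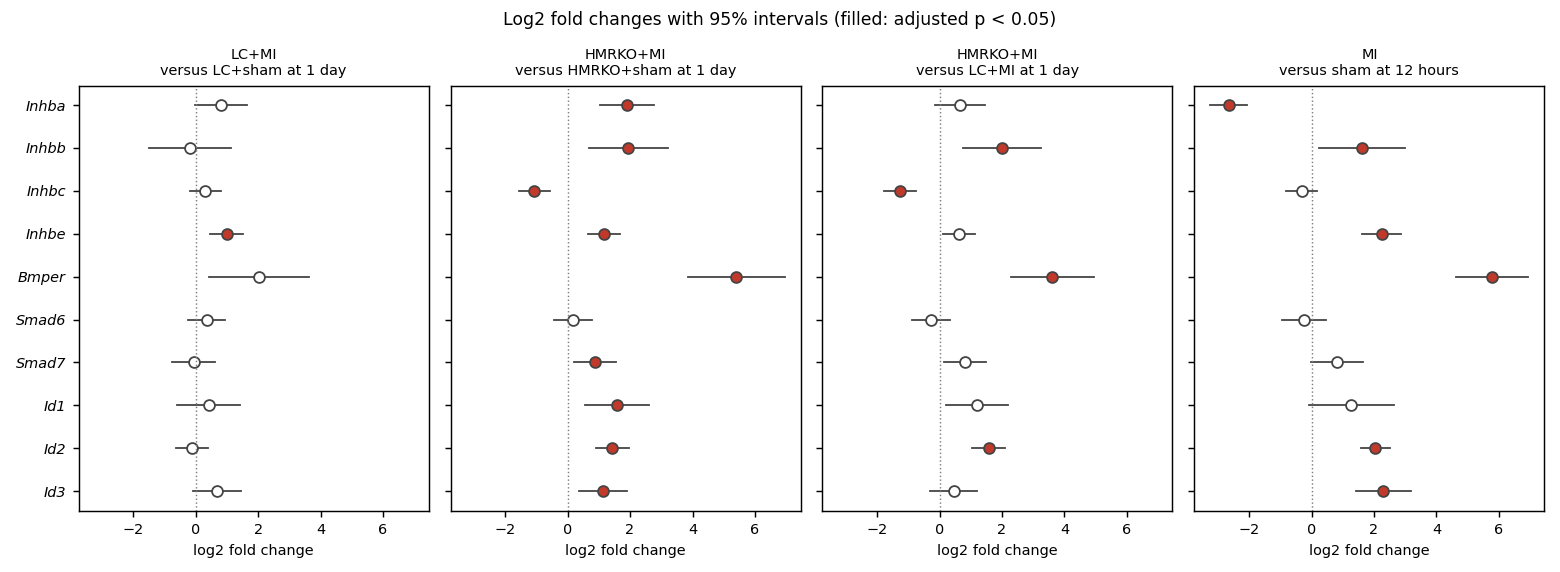
Log2 fold change of each member in 4 comparisons, with bars for 95% intervals from edgeR. Filled points have an adjusted p under 0.05. Inhba lies at 1.91 in HMRKO livers at 1 day and at -2.65 at 12 hours, and Bmper has the highest value in each of the 4 panels.

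At 12 hours after MI, 5 of the 10 rose in C57 livers, against 34.3% of all genes, and 1, Inhba, was lower relative to library size, against 32.0%. Levels per length can be compared between genes in TPM (transcript abundance scaled to length and library). In sham livers Id2 was highest, at 68.4 ± 8.17 TPM (SD, n = 3), followed by Inhbc at 61.3 ± 14.2, Id3 at 44.3 ± 9.26, Inhba at 31.6 ± 4.75, Inhbe at 22.3 ± 7.47 and Id1 at 13.5 ± 7.25 TPM. Smad6 at 3.70 ± 0.06, Smad7 at 2.53 ± 0.75, Inhbb at 0.69 ± 0.80 and Bmper at 0.34 ± 0.18 TPM followed. In this order Id2 and Inhbc overlapped, as did Id3 and Inhba, Inhba and Inhbe, Inhbe and Id1, and Inhbb and Bmper. In MI livers the order was Id2 (183 ± 26.4 TPM), Id3 (142 ± 85.3), Inhbe (69.2 ± 18.8), Inhbc (32.1 ± 6.54), Id1 (20.5 ± 17.2), Bmper (11.4 ± 4.74), Smad7 (3.50 ± 1.45), Inhba (2.83 ± 0.75), Smad6 (1.92 ± 0.44) and Inhbb (1.19 ± 0.23). Neighbours from Id2 to Inhbe overlapped in MI livers, as did those from Inhbc to Bmper and from Smad7 to Smad6. Inhbe thus stood below Inhbc in sham and above it in MI livers, without overlap in either.

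Of the single genes at 12 hours, Bmper was at 7.68, 16.7 and 9.73 TPM in MI and 0.51, 0.36 and 0.16 TPM in sham livers. The sham values rest on 2, 2 and 1 reads, and the MI values on 377, 856 and 478. The ratio of reads per total count between the groups was 35.7, with an exact 95% interval of 15.3 to 110 that covers counting error only. In edgeR, on the scaled counts, the log2 fold change of Bmper was 5.77 (SE 0.52), or 54.4-fold, with an adjusted p of 9.41e-06. Inhbe was at 90.8, 57.7 and 59.1 TPM in MI and 13.9, 24.9 and 28.2 TPM in sham livers, a log2 fold change in the counts of 2.24 (SE 0.29, edgeR adjusted p = 7.19e-05). Id2 was at 193, 154 and 204 TPM in MI and 75.4, 59.4 and 70.3 TPM in sham livers, with 2.05 (SE 0.22, edgeR adjusted p = 2.13e-05). Id3 was at 240, 102 and 83.7 TPM in MI and 46.6, 34.1 and 52.2 TPM in sham livers, with 2.30 (SE 0.39, edgeR adjusted p = 0.000479). For each of these 4 genes every MI liver was above every sham liver. In the same fit the 8 hepatocyte markers had a median log2 fold change of 1.79, while their summed TPM overlapped between the groups. Inhbb was at 0.98, 1.43 and 1.15 TPM in MI and 1.61, 0.32 and 0.14 TPM in sham livers, which overlapped. Its log2 fold change of 1.62 (SE 0.62, edgeR adjusted p = 0.0397) did not pass with DESeq2 (0.05) or on the TPM scale, where it was 0.47 (limma adjusted p = 0.196). The call was also lost with RLE scaling (edgeR adjusted p = 0.0513) and with a filter on a mean count of 10 (0.0579). It was lost too without C57 + sham replicate 2 (edgeR adjusted p = 0.135) or 3 (0.153).

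Inhba was the member with a lower value in MI livers at 12 hours. It was at 2.68, 2.17 and 3.65 TPM in MI and 36.4, 31.4 and 26.9 TPM in sham livers, without overlap. The log2 fold change in the counts was -2.65 (SE 0.27, edgeR adjusted p = 1.63e-05). Its estimated counts were 110.64, 74.79 and 133.13 in MI and 97.75, 111.66 and 108.11 in sham libraries, so the number of reads was alike while the library totals differed, and whether these reads measure Inhba mRNA was not tested. GENCODE M21 annotates B230303A05Rik and Gm48444 on the opposite strand across Inhba, and they were not analysed here. Id1 (1.27, SE 0.61, edgeR adjusted p = 0.0877) and Smad7 (0.83, SE 0.38, edgeR adjusted p = 0.0747) did not pass. Inhbc (-0.31, SE 0.22) and Smad6 (-0.24, SE 0.31) did not pass in the counts, but were lower on the TPM scale, with -0.91 (limma adjusted p = 0.00769) and -0.70 (limma adjusted p = 0.0119). The median log2 fold change of all genes was 0.11 with TMM scaling, 0.03 with RLE scaling and -0.37 on the TPM scale. Of all genes tested, 4299 were higher and 4013 lower in the main test, against 2268 and 5419 on the TPM scale.

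**Figure D4:**
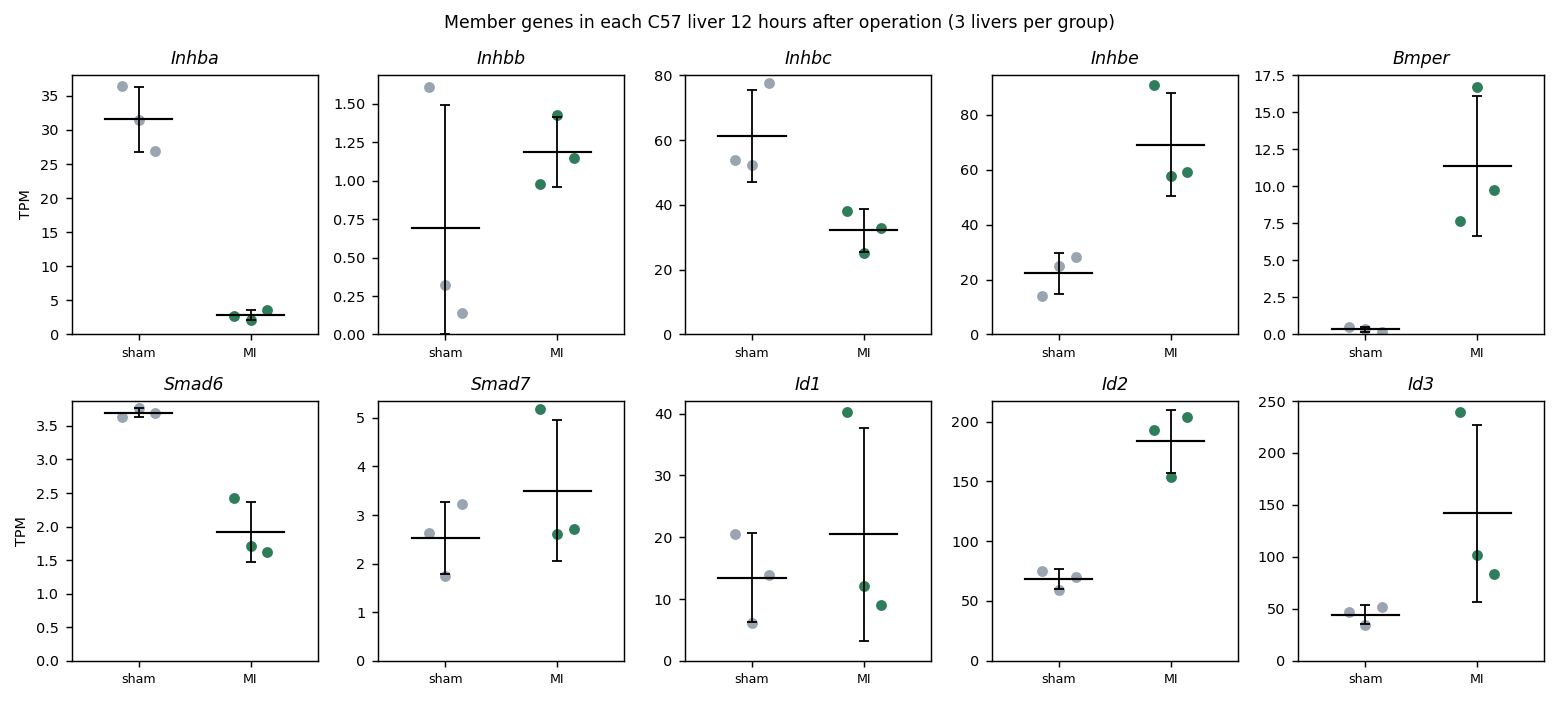
TPM of each member in each C57 liver at 12 hours, with means and 1 SD (n = 3), each panel on its own axis from 0, where bars are cut. Bmper, Inhbe, Id2 and Id3 are higher in every MI liver, and Inhba, Inhbc and Smad6 are lower on this scale. The share of all genes that separate in this way was not counted.

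The other genes of the pathway were taken from 7 lists of 98 genes in all, of which 75 were tested at 1 day and 66 at 12 hours. In HMRKO + MI versus HMRKO + sham 21 of 75 were higher, against 22.0% of all genes, and 11 lower, against 21.7%, with a median log2 fold change of 0.04. In LC + MI versus LC + sham 3 were higher, against 2.68% of all genes, and 1 lower, against 2.33%, with a median of -0.06, and DESeq2 passed 7. In HMRKO + MI versus LC + MI 8 were higher, against 14.6%, and 8 lower, against 16.2%, with a median of 0.14. In HMRKO + sham versus LC + sham 0 of 75 passed in edgeR, where 1 had an unadjusted p under 0.05, and 0 in DESeq2. In the interaction 6 were higher, against 6.74%, and 3 lower, against 8.50%. At 12 hours 23 of 66 were higher and 20 lower, close to the 34.3% and 32.0% of all genes, with a median of 0.18. The medians of all genes were within 0.01 of 0 at 1 day and 0.11 at 12 hours.

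Of the 17 receptors and co-receptors tested at 1 day, 8 rose and 2 fell with MI in HMRKO livers, against 22.0% and 21.7% of all genes. In LC livers 0 of the 17 passed in edgeR, against 2.68% and 2.33% of all genes, where 5 had an unadjusted p under 0.05 and DESeq2 passed 1. Acvr1b, a type I activin receptor, was at 25.0 CPM on average in HMRKO + MI and 10.2 in HMRKO + sham livers (log2 fold change 1.29, SE 0.19, edgeR adjusted p = 0.000265). Acvr2a, a type II activin receptor, was at 12.7 and 6.94 CPM (0.87, SE 0.21, edgeR adjusted p = 0.00522), and Tgfbr2 at 23.4 and 7.19 CPM (1.70, SE 0.28, edgeR adjusted p = 0.000577). The interaction also passed for Tgfbr2 (2.34), Tgfbr1 (0.87) and Acvr2a (1.23), and for Hfe2, the BMP co-receptor hemojuvelin (-1.64). At 12 hours Acvr1b (3.68) and Tgfbr2 (2.54) were higher, and Acvr2b (-3.46) and Eng (-1.21), an endothelial co-receptor, were lower, each with an edgeR adjusted p under 0.001. Lower values of pathway and marker genes at 12 hours, here and below, are relative to library totals, which differed between the groups. Their read numbers were not compared as those of Inhba were, and whether such reads measure mRNA was not tested.

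Among ligands, Nodal rose in LC livers after MI (2.01, SE 0.49, edgeR adjusted p = 0.0346), at a mean of 0.855 against 0.208 CPM. In HMRKO livers Gdf2, which encodes BMP9 of hepatic stellate cells, rose (0.83) while Bmp7 (-2.01), Lefty1 (-2.73) and Gdf9 (-1.92) fell. At 12 hours Bmp4 (-2.62), Tgfb1 (-1.71), Gdf3 (-3.69) and Tgfb2 (-2.38) were lower, with 1 of 11 ligands higher and 4 lower in all, against 34.3% and 32.0% of all genes. Of the secreted antagonists, Chrdl2 rose with MI in LC (3.27, SE 0.82, edgeR adjusted p = 0.0395) and HMRKO livers (3.86, SE 0.76, edgeR adjusted p = 0.00158) from means of 0.0490 and 0.0768 CPM. Kcp (-1.88), Twsg1 (-0.42) and Dand5 (-0.71) fell in HMRKO livers. At 12 hours 2 of 11 antagonists were higher and 6 lower, against the same shares of all genes, among them Kcp (-2.89) and Fstl1 (-2.56).

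Of 15 other Smads and intracellular regulators, 7 rose and 1 fell with MI in HMRKO livers, against 22.0% and 21.7% of all genes. Nedd4l, a ubiquitin ligase that acts on Smads, rose in LC (1.31), HMRKO (1.45) and C57 livers (1.55), and Skil, a repressor of Smad-driven transcription, rose in HMRKO livers (1.25). Smad3, the activin and TGF-beta effector, fell in HMRKO livers (-1.32, SE 0.23, edgeR adjusted p = 0.000744), while Smad4 had a positive interaction (0.86). At 12 hours 9 of 15 were higher and 0 lower, against 34.3% and 32.0% of all genes, among them Smad1 (1.61), Smurf2 (1.30) and Tgif1 (1.38).

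Of 4 BMP targets other than the Id genes and inhibitory Smads, 0 rose and 1 fell with MI in HMRKO livers, against 22.0% and 21.7% of all genes. Of 3 tested at 12 hours 2 were higher and 0 lower, against 34.3% and 32.0% of all genes. Hamp2, a hepcidin gene, was the 1 that fell in HMRKO livers (-1.87, SE 0.53, edgeR adjusted p = 0.0131), and Hamp (1.72, SE 0.59, edgeR adjusted p = 0.0232) and Hamp2 (1.03) were the 2 at 12 hours. Reads of these near-identical genes may be shared. Of 8 activin and TGF-beta targets, 2 rose and 0 fell with MI in HMRKO livers, against 22.0% and 21.7% of all genes. Ctgf, which encodes a matrix-associated growth factor, rose there from a mean of 2.31 to 9.63 CPM (2.05, SE 0.55, edgeR adjusted p = 0.00922). In LC livers 0 of the 8 passed in edgeR, against 2.68% and 2.33% of all genes. DESeq2 also passed 0, and 0 had an unadjusted p under 0.05. At 12 hours 2 of the 8 were higher and 5 lower, against 34.3% and 32.0% of all genes. Pmepa1 (-2.38), Col1a1 (-3.17) and Col1a2 (-2.10) were among the lower. Among the 3 E protein genes, whose products Id proteins bind, 1 rose and 1 fell in HMRKO livers, against 22.0% and 21.7% of all genes. Tcf12 rose (1.17, SE 0.17, edgeR adjusted p = 0.00022) and Tcf4 fell (-0.64, SE 0.18, edgeR adjusted p = 0.0131). At 12 hours Tcf4 (-2.85) and Tcf3 (-0.55) were lower and 0 of the 3 higher, against 32.0% and 34.3% of all genes.

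Genes with the most similar pattern over the 12 livers at 1 day were sought among 12139 genes by the root mean square (RMS) difference of centred log2 CPM. For Bmper the nearest was Fgf21, which encodes a secreted hepatic hormone, with an RMS difference of 0.76, followed by Slc34a2, a phosphate transporter gene (0.85), and RP24-302M3 (0.91). Fgf21 was at means of 0.425 CPM in LC + sham, 2.28 in LC + MI, 0.495 in HMRKO + sham and 15.3 in HMRKO + MI livers. For Id1 the nearest genes were Lyve1 (0.38), Id3 (0.39) and Prkx (0.42), for Id2 Itgam (0.22), Gm10762 (0.23) and Btg2 (0.25), and for Id3 Nt5e (0.20), Skil (0.25) and Ski (0.26). For Inhbe they were Gm20388 (0.26), Zfp746 (0.26) and Acvr1b (0.28), and for Inhbc Cnpy4 (0.17), Asb13 (0.18) and Zfp511 (0.19). For Inhba they were Gm44170 (0.29), Dnajc10 (0.30) and Prune1 (0.30), and for Inhbb Ror1 (0.44), Txnip (0.45) and Trmt61a (0.45). The group means of Smad6 and Smad7 spanned less than 1 on the log2 scale and were not matched.

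Markers of other liver cells moved with some of these results, and their part in them was not tested. Of all genes tested, 22.0% were higher and 21.7% lower with MI in HMRKO livers at 1 day. These shares were 2.68% and 2.33% in LC livers, and 34.3% and 32.0% at 12 hours. Over 12 endothelial markers the summed level was 201 to 317 CPM in HMRKO + MI and 165 to 242 CPM in HMRKO + sham livers, with 2 higher and 0 lower, Lyve1 among them (2.24, SE 0.51, edgeR adjusted p = 0.00368). Of 6 neutrophil markers tested, 5 rose and 0 fell with MI in HMRKO livers, and the 9 listed summed to 30.4 to 33.6 CPM against 9.01 to 14.1 CPM. In the same comparison 1 of 10 Kupffer markers was higher and 3 were lower (summed 102 to 192 against 150 to 222 CPM), and 0 of 6 lymphocyte markers were higher and 3 were lower (1.02 to 1.57 against 3.66 to 6.19 CPM). Of 10 stellate markers 2 were higher and 0 lower (193 to 324 against 134 to 272 CPM), and of 5 cholangiocyte markers 1 was higher and 1 lower (35.4 to 70.1 against 53.6 to 127 CPM). Of 8 hepatocyte markers 1 was higher and 1 lower, and their sum was 63725 to 70948 against 47073 to 60984 CPM. In LC + MI versus LC + sham 4 of 10 Kupffer markers were lower (152 to 169 against 236 to 314 CPM). In HMRKO + sham versus LC + sham 0 of 10 Kupffer markers passed, but 7 had an unadjusted p under 0.05 (150 to 222 against 236 to 314 CPM). In HMRKO + MI versus LC + MI 14.6% of all genes were higher and 16.2% lower. There 4 of 6 neutrophil markers were higher and 0 lower (30.4 to 33.6 against 10.9 to 20.5 CPM). Of 6 lymphocyte markers 0 were higher and 2 lower, and of 10 Kupffer markers 0 and 1. At 12 hours 6 of 8 hepatocyte markers were higher and 1 lower in the counts, but their summed TPM overlapped, at 54873 to 74270 in MI and 53679 to 64787 in sham livers. Their summed CPM did not overlap, at 78195 to 104854 in MI and 33279 to 37860 in sham livers. Of 12 endothelial markers 1 was higher and 3 lower, of 10 stellate markers 0 and 4, and of 10 Kupffer markers 0 and 1. Of 8 neutrophil markers tested 5 were higher and 2 lower, while the summed TPM of the 9 listed overlapped, at 57.3 to 145 in MI and 107 to 141 in sham livers. On the CPM scale of the test the sum of the 9 was lower in every MI liver, at 45.7 to 91.4 against 136 to 181 CPM. The 2 lymphocyte markers tested were lower, and of 5 cholangiocyte markers 2 were higher and 3 lower. The summed TPM at 12 hours was 83.6 to 92.8 in MI against 154 to 259 in sham livers for endothelial, 136 to 160 against 360 to 423 for stellate, and 58.6 to 199 against 171 to 365 for Kupffer markers.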

How the data were processed

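RNA sequencing of 18 mouse livers was analysed as 2 experiments that were never fitted together. At 1 day the values are raw counts of reads per Ensembl gene, as deposited by the authors. At 12 hours they are estimated counts, FPKM and TPM, also as the authors deposited them. The FPKM values deposited by the authors, scaled to length and library size, were not used, nor were their group means. The TPM values deposited by the authors gave the levels per length and 1 alternative test. The submitters' processing notes list HISAT2 2.1.0, Bowtie2 2.2.3, DESeq2, TopHat2 and, as build, mm9, without roles. Counter, annotation and strandedness: not given in the sources used here. Reads of overlapping genes therefore cannot be told apart. Every column of per-sample values was mapped. Coordinates and sequences are those of RefSeq on GRCm38.p6, not of the authors' build, and no count was placed by them.

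Genes were kept by filterByExpr (minimum count 10, minimum total 15), which left 14266 genes at 1 day and 12548 at 12 hours. Estimated counts were rounded first; 6816 genes had values that were not whole. Counts were scaled by TMM and tested in R 4.3.3 with the edgeR 4.0.16 quasi-likelihood test, 1 coefficient per group, with Benjamini-Hochberg adjustment over all genes tested. CPM was taken over the TMM-scaled total. The spread between livers, as a biological coefficient of variation, was 0.209 (1 day) and 0.240 (12 hours). Alternatives were RLE scaling, DESeq2 1.42.0, no filter, a filter on a mean count of 10, the replicate number as a block, only the 2 groups compared, each liver left out, a log2 fold change over 1, and limma 3.58.1 on log2(TPM + 1). The test was run on simulated counts first. The members, pathway and marker lists were chosen with earlier results of these data known. Named besides the members are Nr3c2, up to 4 passing genes of the smallest p per pathway list and comparison, and the 3 genes of most similar pattern per member with a mean CPM of at least 1. Lyve1 is named as a marker after its values were seen, and Gm47200, B230303A05Rik and Gm48444 because they overlap members. Some genes that this rule takes are not reported here.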

Additional observations from a re-analysis of the deposited data

Results flagged for a closer look

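The effect of MI differed between HMRKO and LC livers at 1 day, by a test of the difference itself, for 3 of the 10 genes. The log2 difference was 1.55 for Id2, -1.37 for Inhbc and 3.37 for Bmper, with edgeR adjusted p values of 0.0146, 0.0192 and 0.0494. The call of Bmper was lost without any one of 10 of the 12 livers, with an adjusted p of 0.05 to 0.484 in edgeR, and also with DESeq2 (0.0562) and with the replicate number as a block (0.0839). For Inhba every MI liver was below every sham liver at 12 hours, by -2.65 on the log2 scale relative to library size but with alike read numbers, and every HMRKO + MI liver was above every HMRKO + sham liver at 1 day. These experiments differ in mice, time, table and depth, and the difference between them was not tested. Groups of 3 livers are too small for a test of single outlying livers.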

How the results depend on the processing

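Of 1006 recomputed values of single members, 0 changed sign where a call was involved, 39 fell below the threshold and 20 passed it. The number of members passing in LC + MI versus LC + sham, 1 as reported, was 2 with no filter, where Bmper joined (adjusted p = 0.0121), and 0 with a log2 fold change over 1. In HMRKO + MI versus LC + MI, 4 as reported, it was 7 with no filter and 7 with DESeq2. Leaving out 1 liver at a time gave 0 to 1 for LC + MI versus LC + sham, 3 to 6 for HMRKO + MI versus LC + MI, 5 to 9 for HMRKO + MI versus HMRKO + sham (5 without HMRKO + sham replicate 1), 0 to 0 for HMRKO + sham versus LC + sham, 2 to 3 for the interaction and 5 to 6 at 12 hours. The 4 pathway genes that passed in LC + MI versus LC + sham were 8 with no filter, 7 with DESeq2 and 1 with only the 2 groups compared. Leaving out livers they became 0 to 6, with 0 without LC + sham replicate 2 or 3, 1 without LC + MI replicate 2 or 3 and 2 without LC + sham replicate 1, HMRKO + sham replicate 1 or HMRKO + MI replicate 2. The 16 in HMRKO + MI versus LC + MI were 10 without LC + MI replicate 1. Of all genes, 1195 were higher and 1369 lower in that comparison without this liver, against 2089 and 2311 with all livers. The 9 in the interaction were 5 without LC + sham replicate 2, LC + MI replicate 1, HMRKO + sham replicate 3 or HMRKO + MI replicate 1. Where this left a group with 2 livers, the spread was pooled over groups. The replicate numbers did not pair the livers, since deviations of livers with the same number correlated between -0.17 and 0.18 at 1 day and between -0.09 and 0.02 at 12 hours. With the replicate number as a block the counts passing were 1, 4, 9, 0, 2 and 7 in the order of the comparisons above, with the call of Bmper lost in the interaction (0.0839) and Id1 passing at 12 hours (0.0321). The causes of these changes were not tested. At 12 hours the sham totals, 1361564 to 2255837, limit Bmper and Inhbb, which had 5 and 10 reads over the 3 sham livers.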
